A study of Mus musculus with 74 samples.

Results

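Long intergenic noncoding RNA (lincRNA) genes are transcribed from DNA between protein-coding genes and give spliced RNAs with no long open reading frame. Peaks of murine KRAB-ZFPs, the Krüppel-associated box zinc finger proteins, were assigned to them when the midpoint of the peak's 200 bp window lay in the body of a lincRNA gene, or within 1 kb upstream of it, and in no protein-coding gene. By this rule 613 of 53011 peaks (1.16%, 95% Wilson interval 1.07 to 1.25) lay in lincRNA genes, and they came from 61 of the 67 KRAB-ZFPs whose name in the peak table matched a sample. The lincRNA genes are those typed as such in GENCODE vM1 on the mm9 build, 1273 in all.

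KRAB-ZFPs bind DNA through arrays of zinc fingers and recruit the co-repressor KAP1 (TRIM28), which brings H3K9 methyltransferases to the bound site. Many of them bind transposable elements, which are also found throughout the introns and promoters of lincRNA genes. Some lincRNAs act in cis, such as Airn in imprinting and Tsix, the antisense transcript of Xist, in X inactivation.

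Each of the KRAB-ZFPs was expressed with an epitope tag at the N or C terminus from a stably integrated transposon or lentiviral vector, and puromycin-resistant clones were pooled before ChIP-seq, so the peaks describe overexpressed proteins. In F9 EC cells, a mouse embryonal carcinoma line, 18 KRAB-ZFPs carried a FLAG tag and 30 an HA tag, with peaks kept when called both over input and over a control ChIP. For 10 more HA-tagged KRAB-ZFPs in F9 cells the Gm14296 sample served as the control, and 9 HA-tagged KRAB-ZFPs were assayed in B6 embryonic stem (ES) cells with input alone. Each KRAB-ZFP was 1 sample without replicates, so intervals on shares cover counting error only, and tests treat each KRAB-ZFP as 1 value. The study set aside several ChIP-seq datasets that gave no binding motif or transposable element target and had low signal over noise. No dataset was left out here for that reason. Over all their peaks, Gm14391, Gm14326, Gm14393 and Gm14418 had a median false discovery rate from the peak caller of 100%.

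The windows that carried the main patterns were read from mm9, plus strand. The first set shows loci at which 3 or more KRAB-ZFPs had a peak in the same lincRNA gene; each line spans the lincRNA windows of the KRAB-ZFPs named for it, with the bases common to those windows in capitals. The intron of 1700030G06Rik at chr5:22071552-22071831 was called in Gm13157, Gm13051, Zfp882, Zfp810 and Zfp661, the intron of 4930555B11Rik at chr2:57038428-57038724 in Zfp457, Zfp759, Gm13235 and Zfp595, and the intron of Pvt1 at chr15:62068106-62068372 in Zfp938, Gm13235 and Zfp709. The stretch upstream of Gm4349 at chr3:95230496-95230711 was called in Zfp493, Gm13154, Zfp759 and Zfp429; the window of Gm13225 at that locus runs on to base 95230832 and was left out of the printed span.
1700030G06Rik: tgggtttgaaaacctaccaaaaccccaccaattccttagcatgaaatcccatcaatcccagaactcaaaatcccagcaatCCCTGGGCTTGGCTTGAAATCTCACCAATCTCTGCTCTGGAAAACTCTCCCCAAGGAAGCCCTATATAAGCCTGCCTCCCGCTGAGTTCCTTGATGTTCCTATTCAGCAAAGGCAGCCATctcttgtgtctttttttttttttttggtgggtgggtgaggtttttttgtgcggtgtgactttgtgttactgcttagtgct
4930555B11Rik: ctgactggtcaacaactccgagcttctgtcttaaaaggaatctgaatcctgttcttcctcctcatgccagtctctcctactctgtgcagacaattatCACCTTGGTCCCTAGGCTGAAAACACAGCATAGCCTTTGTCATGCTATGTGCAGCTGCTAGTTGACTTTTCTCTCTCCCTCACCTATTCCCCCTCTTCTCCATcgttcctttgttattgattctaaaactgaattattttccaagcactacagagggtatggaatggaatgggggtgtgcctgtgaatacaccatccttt
Pvt1: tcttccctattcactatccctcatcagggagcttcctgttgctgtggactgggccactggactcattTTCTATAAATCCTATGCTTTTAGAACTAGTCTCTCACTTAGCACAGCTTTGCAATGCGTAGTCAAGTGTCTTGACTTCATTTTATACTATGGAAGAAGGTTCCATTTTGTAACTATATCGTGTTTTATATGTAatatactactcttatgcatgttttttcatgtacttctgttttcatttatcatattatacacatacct
Gm4349: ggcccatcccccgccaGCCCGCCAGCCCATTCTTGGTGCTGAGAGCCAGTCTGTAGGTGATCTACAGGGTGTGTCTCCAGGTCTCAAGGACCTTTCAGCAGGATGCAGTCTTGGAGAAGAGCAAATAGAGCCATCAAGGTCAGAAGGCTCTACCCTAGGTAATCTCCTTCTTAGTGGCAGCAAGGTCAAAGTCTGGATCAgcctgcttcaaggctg

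The second set shows lincRNA peaks that held the 10-base word found for their KRAB-ZFP at its peaks outside lincRNA genes, with the word, on either strand, in capitals. Each is the single-copy lincRNA window of highest fold enrichment with the word for its KRAB-ZFP, or 1 of the 2 highest for Gm13152. They lie in introns, at chr2:126349442-126349641 (Gm16762, Gm13152), chr2:50181592-50181791 (Gm13483, Gm13152), chr10:84014457-84014656 (C330046G13Rik, Zfp617), chr19:11366833-11367032 (4930526L06Rik, Gm13154), chr6:128413646-128413845 (Gm10069, Zfp882) and chr11:113058812-113059011 (2610035D17Rik, Zfp46).
Gm16762: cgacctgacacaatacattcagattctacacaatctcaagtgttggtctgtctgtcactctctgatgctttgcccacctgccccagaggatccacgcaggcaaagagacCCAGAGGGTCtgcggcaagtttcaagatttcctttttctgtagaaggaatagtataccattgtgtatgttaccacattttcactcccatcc
Gm13483: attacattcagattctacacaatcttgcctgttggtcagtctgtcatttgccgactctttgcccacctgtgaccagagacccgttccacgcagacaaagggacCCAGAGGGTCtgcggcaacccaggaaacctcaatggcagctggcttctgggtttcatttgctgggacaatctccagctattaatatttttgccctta
C330046G13Rik: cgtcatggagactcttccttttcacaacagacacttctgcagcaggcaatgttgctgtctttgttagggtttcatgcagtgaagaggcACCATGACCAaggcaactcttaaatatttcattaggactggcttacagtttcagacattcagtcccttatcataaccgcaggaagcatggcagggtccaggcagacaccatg
4930526L06Rik: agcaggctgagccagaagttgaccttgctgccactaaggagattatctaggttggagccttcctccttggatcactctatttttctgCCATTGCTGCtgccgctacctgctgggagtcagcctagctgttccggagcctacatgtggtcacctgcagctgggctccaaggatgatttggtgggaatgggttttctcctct
Gm10069: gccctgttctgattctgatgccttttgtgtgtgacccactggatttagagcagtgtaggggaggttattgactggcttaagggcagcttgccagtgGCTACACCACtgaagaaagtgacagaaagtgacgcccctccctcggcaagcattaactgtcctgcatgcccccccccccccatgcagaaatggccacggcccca
2610035D17Rik: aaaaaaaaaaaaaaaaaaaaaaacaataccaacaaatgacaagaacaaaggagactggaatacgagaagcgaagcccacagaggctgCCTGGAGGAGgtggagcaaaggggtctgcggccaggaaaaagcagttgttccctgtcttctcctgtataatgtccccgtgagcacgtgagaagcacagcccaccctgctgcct

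The third set shows the 2 single-copy lincRNA peaks of highest fold enrichment and, below them, the start-proximal Gm13152 peak of highest fold enrichment, none of which held its KRAB-ZFP's word. They lie at chr11:117472353-117472552, upstream of 2900041M22Rik (Zfp961), at chr17:46811266-46811465, in an intron of Gm16736 (LOC102638055), and at chr15:100299132-100299331, upstream of 5330439K02Rik (Gm13152).
2900041M22Rik: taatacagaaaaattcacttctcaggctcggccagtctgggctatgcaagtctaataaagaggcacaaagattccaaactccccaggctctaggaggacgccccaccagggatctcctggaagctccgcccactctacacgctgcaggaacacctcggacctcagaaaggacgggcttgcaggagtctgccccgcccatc
Gm16736: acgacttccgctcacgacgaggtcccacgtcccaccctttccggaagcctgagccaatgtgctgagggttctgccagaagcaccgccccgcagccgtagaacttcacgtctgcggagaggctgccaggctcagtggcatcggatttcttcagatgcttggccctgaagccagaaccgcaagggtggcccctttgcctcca
5330439K02Rik: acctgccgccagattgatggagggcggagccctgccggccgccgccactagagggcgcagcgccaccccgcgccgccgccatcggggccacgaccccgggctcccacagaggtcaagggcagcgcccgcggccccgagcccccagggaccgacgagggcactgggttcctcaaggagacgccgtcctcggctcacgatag

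LincRNA genes and their upstream 1 kb, outside protein-coding genes, covered 25.8 Mb, 1.01% of the assembled genome outside gaps. They held 23.8 peaks per Mb, beside 20.7 over the whole genome, 21.7 in protein-coding genes with their upstream 1 kb and 20.7 outside all annotated genes. LincRNA peaks in the 1 kb upstream of a protein-coding gene counted in both classes. Leaving these out left 546 lincRNA peaks, 1.03% of all peaks, close to the 1.01% of the genome. Without Gm13152, the KRAB-ZFP with the most lincRNA peaks, these densities were 20.2, 18.7, 18.2 and 19.3 per Mb. A further 341 of the 954 peaks in lincRNA genes lay in a protein-coding gene as well and were left out. None of the 613 lay in an annotated pseudogene and 22 lay also in a gene typed as a processed transcript.

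The lincRNA type was checked against RefSeq (GRCm38.p6) by name or Ensembl identifier. Of the 301 lincRNA genes with a peak, 195 matched an entry typed as lncRNA, 2 as antisense RNA and 13 as protein-coding, and 83 were not matched. The 13, among them Gm16867, accounted for 29 assignments of a peak to a gene. A further 4 matched pseudogene entries and 4 transcribed pseudogenes, among them Gm4349.

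No difference in strength was detected between the lincRNA peaks and the other peaks of the same proteins. Their fold enrichment over control, as given by the peak caller, had a median of 22.4 and ran from 3.24 to 132.15, on a median of 47 tags (7 to 810). The caller's false discovery rate was under 5% for 523 of the 613 (85.3%, beside 86.2% of all peaks). It was 100% for 8. Within the 28 KRAB-ZFPs that had at least 5 lincRNA peaks, the median log2 fold of lincRNA peaks exceeded that of the protein's other peaks by 0.03 ± 0.029 (SEM), with 17 KRAB-ZFPs up and 10 down (permutation test by sign flips, p = 0.292). Against the peaks in protein-coding genes alone the difference was 0.06 (permutation p = 0.0261), which was 1 of several reference sets tried.

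The highest fold enrichment at a single-copy site was that of Zfp961 upstream of 2900041M22Rik, 132.15 on 221 tags at position -108 from the start. LOC102638055 in an intron of Gm16736 followed with 126.98 on 246 tags. Zfp961 also gave the third value, 115.31 on 194 tags in an intron of Gm16685, and 81.62 in 2610035D17Rik. Gm13152 reached 90.89 in 2310015A10Rik, 83.62 upstream of 5330439K02Rik and 79.54 in Gm16762, and Gm13154 reached 84.93 in Gm11019. Zfp46 upstream of Gm4673 (75.36) and Gm13051 in 1700030G06Rik (74.55) completed the 10 strongest. The 10 thus came from 6 KRAB-ZFPs, and 3 of them lay upstream of a gene.

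Gm13152 had the most lincRNA peaks, 93 of its 5189 (1.79%, interval 1.47 to 2.19). Gm13225 followed with 49 of 3570, Gm14406 with 45 of 5685, Gm13251 with 36 of 3300, Gm14412 with 33 of 2787 and Gm14419 with 29 of 3906. Gm13235 had 25, Gm14401 24, Zfp457 20, and Zfp961 and Gm13154 18 each. Those with many lincRNA peaks were largely those with many peaks in all: the 5 with the most held 41.8% of the lincRNA peaks and 38.7% of all peaks. The lincRNA peaks of these proteins lay in many genes, 86 for the 93 peaks of Gm13152 and 46 for the 49 of Gm13225.

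As a share of a protein's own peaks, lincRNA genes took between 0 and 5%. Zfp882 had the highest share among KRAB-ZFPs with at least 100 peaks, 5 of 100 (interval 2.15 to 11.2), followed by Zfp810 with 8 of 243 (3.29%), Zfp493 with 3 of 117 (2.56%), Gm14420 with 9 of 383 (2.35%) and Zfp938 with 3 of 134 (2.24%). At the other end, Gm14436 had 0 of 212 peaks (interval 0 to 1.78) and Gm14410 0 of 142 (interval 0 to 2.63). Zfp429 had 1 of 254, Zfp933 1 of 216 and Gm4631 2 of 371. For 52 of the 59 KRAB-ZFPs with at least 100 peaks the interval held the pooled share of 1.16%, with 4 above it and 3 below. For most proteins the share was thus within counting error of the pooled value.

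**Figure D1:**
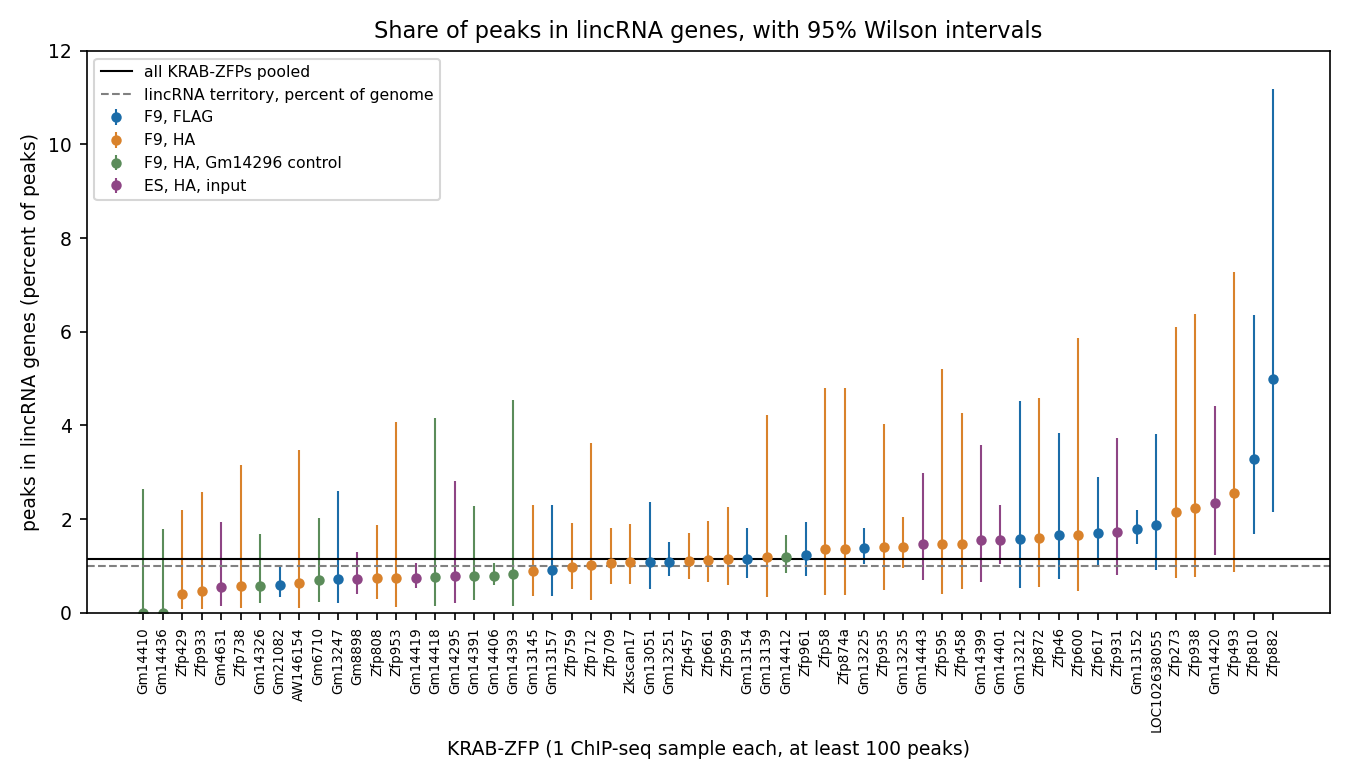
Percent of each KRAB-ZFP's peaks that lay in lincRNA genes, for the 59 KRAB-ZFPs with at least 100 peaks in order of that percent; points are single samples coloured by cell line, tag and control, bars are 95% Wilson intervals, the solid line is the pooled 1.16% and the dashed line the 1.01% of the genome that lincRNA genes cover. Zfp882 at 5% has the highest share, and most intervals cross both lines.

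No difference in the share was detected in the comparisons of setups that were tested, F9 FLAG against F9 HA and F9 against ES. Over KRAB-ZFPs, the mean share was 1.46% in the 18 FLAG-tagged and 1.27% in the 30 HA-tagged F9 samples called over input and control, a difference of 0.188 points with a standard error of 0.311 (permutation test, p = 0.525). Without Zfp882 the difference was -0.0202 points (permutation p = 0.936), and at the strictest calling thresholds -1.02 points (permutation p = 0.193). With KRAB-ZFPs of at least 100 peaks it was 0.448 points (permutation p = 0.0832), and with N-terminal tags alone 0.482 points (permutation p = 0.310). Between the 58 F9 and the 9 ES samples the difference was -0.0127 points with a standard error of 0.237 (permutation test, p = 0.970). The 58 include the 10 samples with the Gm14296 control. Their mean share of 0.86% was the lowest of the setups and was not tested on its own. Each setup held different proteins, and calling thresholds and control also differed, so these factors cannot be told apart.

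By position, 505 of the 613 peaks lay in introns, 55 in exons and 53 in the upstream 1 kb. The upstream stretch held more peaks than its length: 8.65% of the peaks lay in 1.75% of the bases, a density of 117 per Mb, and 62.1 per Mb without Gm13152. Stretches upstream of protein-coding genes were not left out of it. Of all 613, 67 lay within 1 kb of a protein-coding start, 30 of them peaks of Gm13152. How many of the 53 upstream peaks did so was not counted. Exons held 8.97% of the peaks in 7.46% of the bases, and introns 82.4% in 90.8%. Of the 560 peaks in gene bodies, 160 lay in the 20% of the body nearest the start, and 109, 89, 110 and 92 in the 4 successive stretches. Peaks within 1 kb of an annotated start, on either side, numbered 104, with 73 within 500 bp and 34 within 200 bp.

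**Figure D2:**
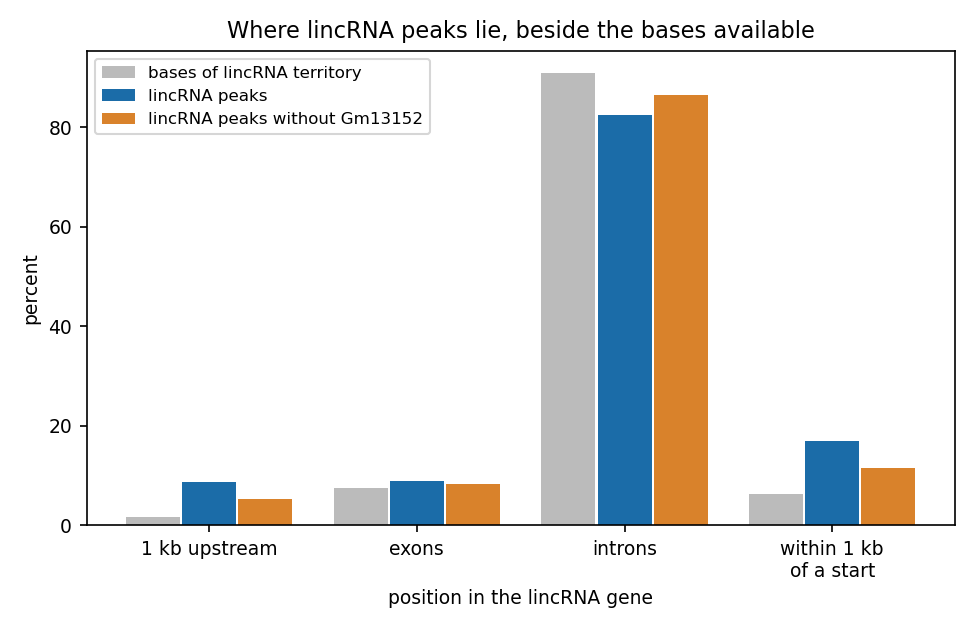
Percent of the bases of lincRNA territory (grey), of the 613 lincRNA peaks (blue) and of the 520 lincRNA peaks other than those of Gm13152 (orange), by position in the gene; the last group, within 1 kb of a start, overlaps the other groups. The upstream 1 kb holds 1.75% of the bases, 8.65% of the peaks and 5.38% without Gm13152.

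These 104 made up 17.0% of the lincRNA peaks. Of the peaks in protein-coding genes or their upstream 1 kb, 23.8% (5215 of 21944) lay within 1 kb of a coding start. The territory near starts was 6.25% of the lincRNA and 7.81% of the protein-coding bases. Without Gm13152 the shares were 11.5% and 14.8%. As a density, the territory near starts held 64.6 peaks per Mb in lincRNA genes and 66.1 in protein-coding genes. Without Gm13152 these densities were 37.3 and 34.5 per Mb, higher in lincRNA genes. The test that follows compared shares of peaks and took no account of the smaller share of lincRNA bases near starts. Within the 28 KRAB-ZFPs the near-start share was 14.02% in lincRNA genes and 19.6% in protein-coding genes, a mean difference of -5.59 points ± 1.86 (SEM), and it was lower in lincRNA genes for 23 of 28 (permutation test by sign flips, p = 0.00516, adjusted over the 6 tests p = 0.0155). It missed the threshold for the 17 KRAB-ZFPs with at least 10 lincRNA peaks (-3.69 points, permutation p = 0.0674) and at the strictest calling thresholds (-5.94 points, permutation p = 0.0508), and with gene bodies alone it was -10.1 points (permutation p = 2e-05).

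Gm13152 gave more peaks near lincRNA starts than any other KRAB-ZFP, 44 of the 104, and the other 60 came from 31 KRAB-ZFPs with at most 6 each. Of the 44, 23 lay also within 1 kb of a protein-coding start, and 21 lay near a lincRNA start alone. Examples are the peak at position -110 from the start of 5330439K02Rik (fold 83.62, 184 tags), the one upstream of Gm4673 at position -373 (69.08, 148 tags) and the one 20 bp into D830044I16Rik (63.6, 146 tags), a gene that RefSeq types as protein-coding. B230206F22Rik, a gene of the X inactivation centre also called Ftx, had a Gm13152 peak at position -115 from an annotated start (62.71, 97 tags); it was singled out after its value was seen. Across all lincRNA peaks, 67 lay within 1 kb of a protein-coding start, and the median distance to one was 23950 bp.

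The sequence of the Gm13152 windows differed with position. The 10-base word held by the largest number of its single-copy peaks outside lincRNA genes was CCAGAGGGTC (reverse GACCCTCTGG), in 504 of 4392 (11.5%) and in 0.0502% of the windows of other KRAB-ZFPs. It occurred in 12 of the 93 lincRNA windows of Gm13152 at any copy number, and in 6 of its 78 single-copy lincRNA windows. All 12 were among the 49 that lay farther than 1 kb from a start and none among the 44 near one. Those 12 were intronic, with folds from 26.36 in 1700028E10Rik to 94.53 in 9330159M07Rik, and the word's centre lay within 32 bp of the summit (median 12.5 bp). The windows near lincRNA starts had a median GC content of 70.2% and 18.5 CpG per 200 bp, beside 56.5% and 7 in those farther away, and median folds of 30.7 and 37.3. Word and GC content differed in the same direction in the other peaks of this protein. There the word lay in 7 of 2466 windows near a coding start and 972 of 2630 farther away. Their median GC content was 72.5% and 52%, and the median fold was 32.7 in both. These counts are descriptions and were not tested.

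Words were also compared for the 28 KRAB-ZFPs with at least 5 lincRNA peaks, searching both strands. Each was the 10-base word with the largest excess share over other KRAB-ZFPs, a rule that gave the same word for Gm13152. The choosing windows were a protein's single-copy peaks outside lincRNA genes. Its lincRNA windows and the windows of other KRAB-ZFPs had any copy number. For Zfp617, ACCATGACCA (reverse TGGTCATGGT) was in 330 of 456 single-copy windows outside lincRNA genes (72.4%), in 0.316% of the windows of other KRAB-ZFPs, and in 7 of its 13 lincRNA windows (53.8%). The Gm16762 and Gm13483 windows of Gm13152 printed above shared a run of 23 bases outside that protein's word. For Gm13154, CCATTGCTGC (reverse GCAGCAATGG) was in 15.4% of the choosing windows and 2 of 18 lincRNA windows, and in 0.0292% of those of other KRAB-ZFPs. For Zfp882, GCTACACCAC (reverse GTGGTGTAGC) was in 21 of 90 choosing windows, in 1 of 5 lincRNA windows and in 0.0227% of the others. For Zfp46, CCTGGAGGAG (reverse CTCCTCCAGG) was in 59 of 267, in 1 of 5 and in 0.102%. For Gm13225 the word was a run of 10 A, in 72.1% of the choosing windows. It was in 41 of its 49 lincRNA windows (83.7%) and in 5.15% of the windows of other KRAB-ZFPs. Simple-repeat words were also chosen for other proteins, such as ACACACACAC for Gm13251 and Gm13235 and CACACACACA for Zfp457 and Zfp709. Over the 28, the share in lincRNA windows was above that in the windows of other KRAB-ZFPs for 17. These 17 are all those with at least 1 match. For the other 11, among them Gm14406 with 45 windows, no lincRNA window held the word. The count is a description only, since 1 match was enough to exceed the share in the others. The words were also chosen for a large excess over other KRAB-ZFPs. A match is a description of letters and not a binding site.

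Many KRAB-ZFP peaks lie in repeated sequence, and the number of exact genomic copies of a window's 24-base words was taken as a measure of this. Diverged copies are not counted, and no repeat annotation was used. A single-copy window may therefore still lie in a repeat. LincRNA peaks had a copy number of 1 in 413 of 613 windows, at least 10 in 129, at least 100 in 96 and at least 1000 in 66. Among all peaks 34.5% of windows had a copy number of at least 10. Reads that fit several sites equally well were placed at 1 of them at random, so the position of a multi-copy peak is uncertain among its copies.

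Peaks in lincRNA genes were less often in multi-copy sequence than the other peaks of the same protein. Over the 28 KRAB-ZFPs the multi-copy share was 21.2% of lincRNA peaks and 28.8% of other peaks, a mean difference of -7.58 points ± 2.50 (SEM). It was lower in 23 of 28 (permutation test by sign flips, p = 0.00291, adjusted over the 6 tests p = 0.0155). The largest differences were those of Gm8898, with 45.5% against 89.2%, and Gm14419, with 31.0% against 71.7%, both in ES cells. Counting windows with at least 2 copies ended the call (-1.31 points, permutation p = 0.688). Against peaks outside all genes the difference was -11.4 points (permutation p = 8e-05), and against those in protein-coding genes -0.836 points ± 2.53 (permutation p = 0.748). The lower share was thus found against peaks outside genes, and no difference from protein-coding genes was detected.

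**Figure D3:**
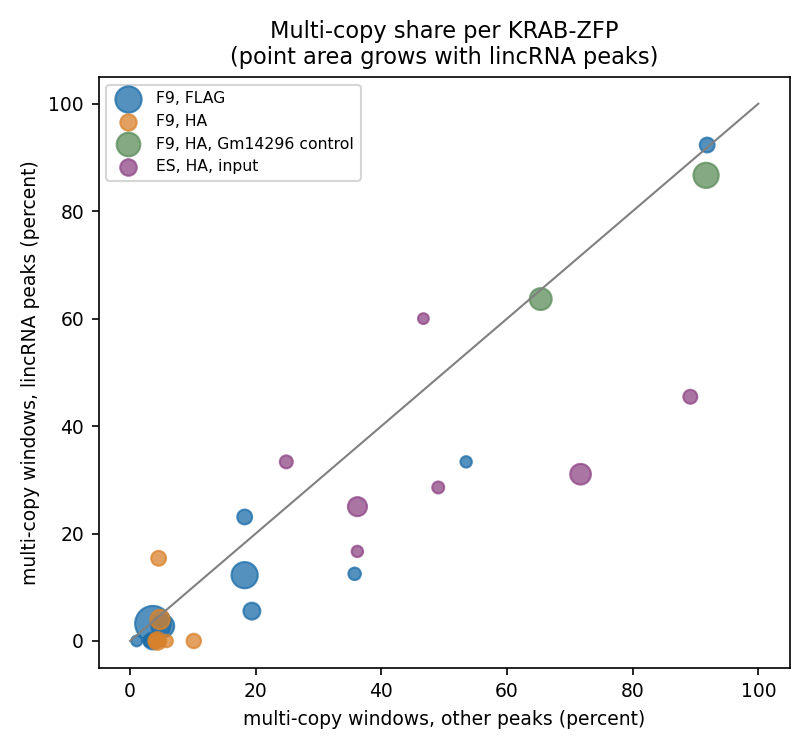
Percent of windows with a copy number of at least 10 among the other peaks (x axis) and the lincRNA peaks (y axis) of the 28 KRAB-ZFPs with at least 5 lincRNA peaks; each point is 1 KRAB-ZFP, coloured by setup, its area grows with the number of lincRNA peaks, and the line marks equal shares. Points lie below the line for 23 of 28.

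Proteins differed widely in this. Of the 45 lincRNA peaks of Gm14406, 39 were multi-copy, as were 12 of 13 for Gm21082 and 21 of 33 for Gm14412. Gm13152 had 3 of 93, Gm13251 1 of 36, Gm13235 1 of 25, and Zfp457 and Gm13154 none of 20 and 18. Among all peaks of the same proteins the multi-copy share was 91.6% for Gm14406 and 3.62% for Gm13152.

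The share of lincRNA genes with a peak rose with gene length. A peak lay in 301 of 1273 lincRNA genes (23.6%), beside 9419 of 22380 protein-coding genes (42.1%), and 130 and 4670 genes had peaks of 2 or more KRAB-ZFPs (10.2% and 20.9%). The median length was 26.8 kb for lincRNA genes with a peak, 6.64 kb for those without and 233 kb for the 27 with at least 5. Number of peaks and length went together over the 1273 genes (Spearman's rho 0.40, Pearson's r 0.69), which are not independent replicates. By length, 4.59% of lincRNA genes under 2 kb had a peak, 13.5% from 2 to 10 kb, 26.9% from 10 to 50 kb and 69.3% at 50 kb and over. The share was below that of protein-coding genes in each class, 6.32%, 20.9%, 47.1% and 81.9%. Protein-coding peaks here include those of overlapping genes, whereas lincRNA peaks inside coding genes were left out, which lowers the lincRNA counts.

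**Figure D4:**
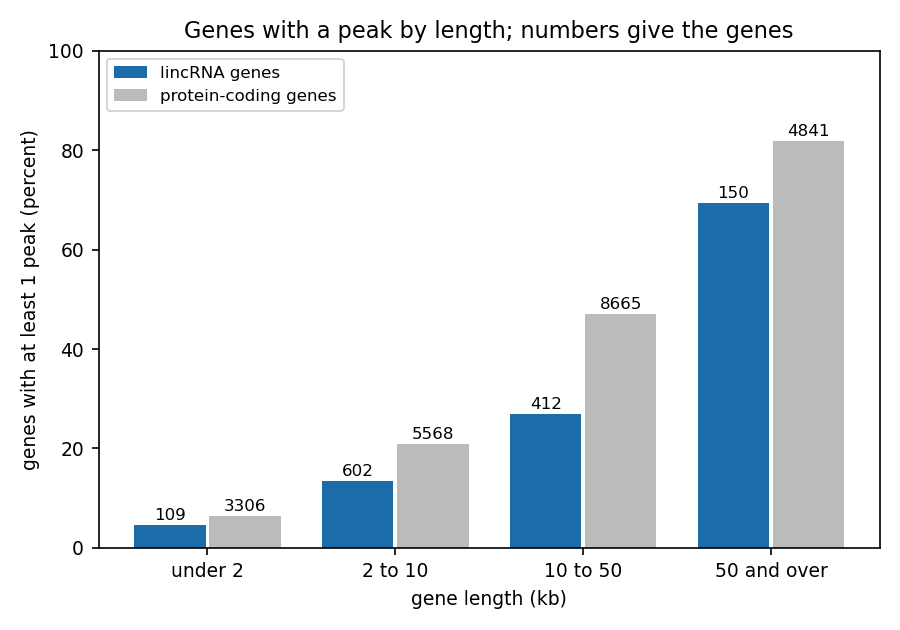
Percent of lincRNA (blue) and protein-coding (grey) genes with at least 1 peak in the body or upstream 1 kb, by gene length in kb, with the number of genes above each bar. The percent rises with length in both classes, to 69.3% and 81.9% at 50 kb and over.

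Gm17683 had the most peaks, 20 from 11 KRAB-ZFPs over 529 kb (chr9:88494494-89023388). All 20 lay in introns, with folds from 11.27 to 94.53, and no window was single-copy, 11 having at least 10 copies. Gm14406 contributed 3 peaks at windows with 7754, 7768 and 8285 copies, and Zfp808 one of fold 81.85 with 7 copies. Gm16083 on chromosome 1 (94.5 kb) was similar, with 6 of its 8 peaks multi-copy. In Gm16083 2 of the 8 windows had a copy number of 1.

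A single stretch of chromosome 4 held 3 of the genes with most peaks. Gm17452 (chr4:146120857-146399068), Gm16889 (chr4:146392344-146866310) and Gm17317 (chr4:146510387-146831128) overlap in a 745 kb stretch that also holds 6 protein-coding gene entries, among them Zfp600, Gm13139 and Gm13145, which were themselves assayed. The stretch had 26 lincRNA peaks from 16 KRAB-ZFPs, with folds from 5.12 to 63.3. Their windows had 2 to 9 copies in 18 cases, a single copy in 4 and at least 10 copies in 4, whereas 71 of all 613 lincRNA windows had 2 to 9. The strongest by tags was Zfp808 in Gm17317, fold 51.82 on 810 tags, a window with 5 copies at which Gm13247 (12.49, 20 tags) and Zkscan17 (24.57, 17 tags) also had a peak. A peak in one of the windows with several copies cannot be told apart from a peak at another copy.

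Of the other genes with the most peaks or KRAB-ZFPs, several held most of their peaks in single-copy sequence. Pvt1 (chr15:61869542-62209651), a lincRNA gene beside Myc, had 9 intronic peaks from 7 KRAB-ZFPs, 8 of them single-copy. Gm13152 gave the strongest, fold 70.17, and the others ran from 11.25 to 44.19. Sox2ot (chr3:34003360-34581541), which surrounds Sox2, had 8 peaks from 7 KRAB-ZFPs, all single-copy, from 10.71 for Gm13225 to 34.63 for LOC102638055. Gm14418, whose peaks had a median false discovery rate of 100%, was 1 of the 7. A330033J07Rik had 8 single-copy peaks from 7 KRAB-ZFPs (11.16 to 37.89), 2610307P16Rik 9 from 9 (10.42 to 30.13), 7 of them single-copy, and Gm14005 7 from 7 (10.23 to 35.46), 4 of them single-copy. 1700030G06Rik (chr5:22056255-22313668) had 10 from 8, of which 5 fell at 1 locus. The 10 genes with the most peaks held 98 of the 613 (16.0%).

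**Figure D5:**
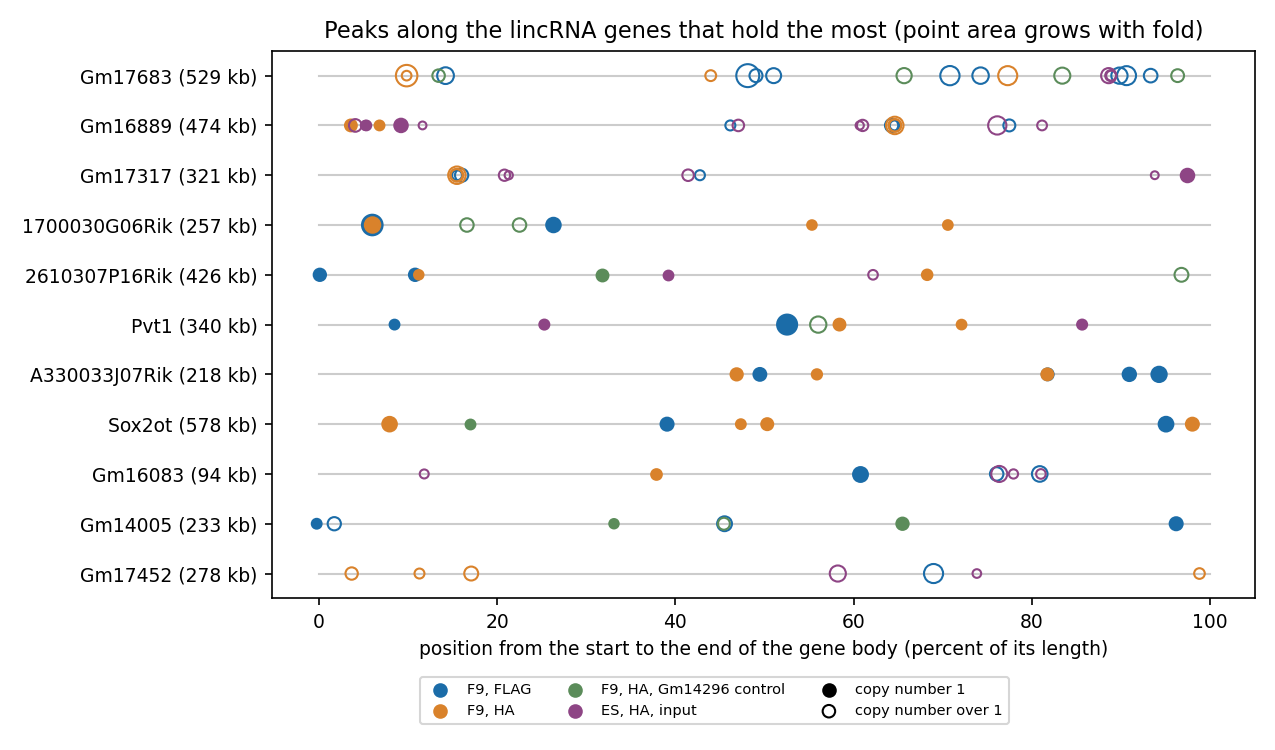
Peaks along 11 lincRNA genes with the most peaks or the most KRAB-ZFPs, as percent of the gene body from its start; colours give cell line, tag and control, point area grows with fold enrichment, filled points are single-copy windows and open points windows with more copies. All points of Gm17683 and Gm17452 are open, while those of Sox2ot and A330033J07Rik are filled.

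A shared locus was counted when windows of different KRAB-ZFPs overlapped by at least 50 bp. This held for 97 lincRNA peaks (15.8%) in 42 genes, beside 13.8% of all peaks. Of the lincRNA peaks, 39 lay at loci of 3 or more KRAB-ZFPs. The share of all peaks at such loci is not given here, so no excess is read from the 39. Over the 28 KRAB-ZFPs the shared share was 19.7% in lincRNA genes and 14.3% elsewhere, a mean difference of 5.45 points ± 2.53 (SEM), higher in 16 of 28 (permutation test by sign flips, p = 0.0318). It missed the threshold after adjustment over the 6 tests (p = 0.0637, permutation test by sign flips). Leaving out any 1 of 6 KRAB-ZFPs, Gm13051, Zfp46, Zfp599, Zfp661, Zfp882 or Zfp931, also took it past 0.05, with 4.01 points and permutation p = 0.0651 without Zfp882. Zfp882 had 4 of its 5 lincRNA peaks at shared loci, beside 38% of all its peaks. Sharing was common among all peaks of some proteins named below, at 36.3% for Gm13235, 53.7% for Zfp938, 48.5% for Zfp759 and 70.7% for Zfp872. Shared loci of these proteins are thus not particular to lincRNA genes. For others it was rare, at 1.09% for Gm13051 and 5.51% for Gm13152.

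The locus in an intron of 1700030G06Rik, 15398 bp from the start for Gm13051, was the one with the most lincRNA peaks in single-copy sequence. Fold enrichment was 74.55 for Gm13051 (78 tags), 38.85 for Zfp661 (83 tags), 32.87 for Zfp882 (24 tags), 32.21 for Zfp810 (23 tags) and 20.84 for Gm13157 (15 tags). Of these, Zfp661 carried HA and the other four FLAG, and all were in F9 cells. The 5 windows shared 120 bp. The fold of Gm13157 lay just above its calling threshold of 20.

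Upstream of Gm4349, 5 KRAB-ZFPs had a lincRNA peak, and windows of Gm13235, Zfp712 and Zfp874a at the same locus lay just beyond the 1 kb limit. Fold was 36.46 for Gm13154, 24.91 for Zfp493, 24.23 for Zfp429, 22.63 for Zfp759 and 13.23 for Gm13225. The windows were centred at positions -997 to -860 from the start and had from 1 to 111 copies. The 4 KRAB-ZFPs at 4930555B11Rik had folds from 12.83 (Zfp457) to 22.0 (Zfp759) on 26 to 40 tags, and a peak of Gm13225 lay farther along in an exon of that gene (12.93).

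At Pvt1, Zfp938 (20.02, 48 tags), Gm13235 (15.68, 35 tags) and Zfp709 (13.36, 27 tags) shared 133 bp in an intron. Zfp938, Gm13235 and Zfp709 also met in an intron of 4930556M19Rik (20.02, 16.94 and 16.33). Gm12592 was called in Gm13145, Zfp872 and Gm13235, Gm16741 in Zfp457, Gm13235 and Zfp953, 4930505N22Rik in Gm13251, Zfp882 and Gm13225, and Gm17245 in Gm13225, Zfp759 and Zfp457. Gm13235 was thus found at loci in 5 lincRNA genes where it had a lincRNA peak of its own. The pair of Gm13235 and Zfp709 shared the most sites, 6. Of all their peaks, 36.3% and 30.7% overlapped a peak of another KRAB-ZFP. In Gm16065 the peaks of Zfp46 (20.38), Gm14412 (39.59) and Gm13152 (39.35) overlapped, across F9 samples with FLAG and HA tags and different controls. The folds of Zfp938 (20.02) and Zfp46 (20.38) lay just above their calling threshold of 20.

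Named lincRNA genes were looked up from a list of 48. Of these 21 were typed as lincRNA, 8 had another type and 19 were absent by that name. A gene absent by name may be annotated under another, as Ftx is under B230206F22Rik, which had a peak. Of the 21, 10 had a peak, beside 23.6% of all lincRNA genes. The 10 include long genes such as Sox2ot and Pvt1. Tsix had 3, of Zfp810 (fold 50.38, 44 tags, single-copy), 2610305D13Rik (20.64, 60 copies) and Gm14401 (14.32). Airn had 2, both of Gm13225 (14.96 and 11.16), and Rmst, a neural lincRNA, 2, of Gm13225 (10.71) and of Gm14412 at a window with 28488 copies (23.97). Snhg12, a host gene of small nucleolar RNAs, had an exonic peak of Gm8898 (18.62) and Dleu2 a peak of Zfp661 272 bp from its start (21.31). Gt(ROSA)26Sor, the locus used for transgenes, had a peak of Gm13152 706 bp from its start (22.95, 108 tags). 1700020I14Rik had a peak of Gm14412 (56.29, 168 tags) and 6720401G13Rik one of Zfp599 (25.41). The 11 without a peak included Xist, Meg3, Rian, Mirg, Gas5, Tug1 and Miat, and peaks in bases shared with a protein-coding gene would have been left out there.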

How the data were processed

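ChIP-seq peaks of epitope-tagged KRAB-ZFPs were analysed from 1 deposited table of the whole series. Per the labels and the study's methods, the authors mapped reads to mm9 with Bowtie or Bowtie2, placing multi-mapping reads at random, and called peaks with MACS 1.4.2. The deposited columns hold a 200 bp window at the summit, tag counts, the score (-10 log10 p), the fold ratio over control, the false discovery rate in percent and the KRAB-ZFP. Thresholds differed by sample (p under 1e-10 or 1e-05, enrichment over 20, over 10 or none in the labels), and no read depth was used here.

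Of 53255 peaks, 244 carried a name that matched no label and were left out, and 1 of the 68 labelled KRAB-ZFPs had no peaks under its name. The 6 control samples served as controls in the calling. Windows were placed on GENCODE vM1 genes by midpoint, and copy number was the median number of exact genomic copies of a window's 24-mers on both strands, with 10 or more called multi-copy. Paired differences within KRAB-ZFPs with at least 5 lincRNA peaks were tested by two-sided sign-flip permutation, and groups of KRAB-ZFPs by two-sided permutation, each with 100000 resamples (Python 3.11.15, numpy 2.4.6). Benjamini-Hochberg adjustment covered the 6 tests. The tests were tested on simulated data.

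Named KRAB-ZFPs were the 10 with the most lincRNA peaks and the 5 highest and 5 lowest shares. Named genes were the 10 with the most peaks or KRAB-ZFPs, and named peaks the 10 of highest fold among single-copy windows and those at loci of 3 or more KRAB-ZFPs. Each KRAB-ZFP's 10-mer was the one with the largest share among its single-copy peaks outside lincRNA genes beyond its share in other KRAB-ZFPs. This replaced the most frequent 10-mer after the data were seen, because simple repeats were often most frequent; both rules gave the same word for Gm13152, Gm13225, Zfp617, Gm13154 and Zfp46. Members and lists were chosen with earlier results of these data known. Sequences were read from the mm9 genome; 1 window is not reported here.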

Additional observations from a re-analysis of the deposited data

Results flagged for a closer look

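Among the 10 F9 samples called over the Gm14296 control, EtOHi1 had the highest share of peaks in lincRNA genes, 2.99%, which stood apart from the other 9. It rested on 2 of 67 peaks. The other 9 include Gm14391, Gm14326, Gm14393 and Gm14418, whose peaks had a median false discovery rate of 100%. Chance sets a sample apart in this way in about 1 of 20 groups.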

How the results depend on the processing

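Of 50 values recomputed under alternative settings, 35 kept their direction and side of the threshold. The share of peaks in lincRNA genes moved to 1.06% with gene bodies alone and to 1.03% without peaks upstream of protein-coding genes. The difference between FLAG and HA in F9 cells reversed to -1.02 points at the strictest thresholds and, chosen after seeing the data, to -0.0202 without Zfp882. The fold difference passed the threshold against protein-coding genes (0.0554). The multi-copy difference was weaker against protein-coding genes (-0.836) and at a copy number of at least 2 (-1.31). The shared-locus difference was weaker with at least 3 lincRNA peaks (4.80), with at least 10 (1.74), at the strictest thresholds (5.93), with gene bodies alone (1.74), against peaks in no gene (4.78) and with an overlap of 1 bp (5.08). The near-start difference was weaker with at least 10 lincRNA peaks (-3.69) and at the strictest thresholds (-5.94). The cause was not tested, beyond the smaller number of KRAB-ZFPs in some settings. Leaving out each KRAB-ZFP in turn, also chosen after seeing the data, gave 0.0206 to 0.0495 for fold, -8.36 to -6.24 for multi-copy, 4.01 to 6.06 for shared loci and -6.40 to -4.86 near starts. It changed 6 calls for shared loci and 1 for fold (without Gm14419, 0.0495, permutation p = 0.0428). The summit position was not run as a separate alternative, since the window is centred on it.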
